A study of Homo sapiens with 6 samples.

Results

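Long intergenic noncoding RNAs, named LINC followed by a number, were taken as the genes of the deposited count table with such a name and at least 10 counts in 3 or more of the 6 libraries. Of 62754 genes in the table, 2286 had such a name, and 249 of these met the count limit (247 symbols, since LINC00680 and LINC00888 each stood under 2 identifiers). A further 1015 LINC genes had counts but stayed under the limit, and 1022 had no count in any library. RNA came from HK-2, an immortalised line of human proximal tubule epithelial cells, in which every culture had received Cisplatin (20 μM for 24 hours per the study's Methods) and an siRNA. CP+siNC cells carried the negative control siRNA and CP+siNAT10 cells the siRNA against NAT10, with 3 libraries in each group. There was no group without Cisplatin or without siRNA among these samples, so each difference below is between the 2 siRNAs under the drug. The HK-2 line alone stands for the proximal tubule. The libraries held between 19321665 and 25192736 counts. The labels do not say whether the 3 libraries of a group came from separate cultures, so p-values measure the spread between these samples, which may be technical.

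LINC genes are transcribed by RNA polymerase II from their own loci, are often spliced and polyadenylated like messenger RNAs, and are classed as noncoding. Most are held at a low level and in few cell types, and those that have been studied act in the nucleus on nearby genes or on chromatin, or bind proteins and microRNAs in the cytoplasm. NAT10 acetylates cytidines in ribosomal, transfer and messenger RNA, and Cisplatin crosslinks DNA in the proximal tubule, where the kidney takes it up.

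NAT10 itself was at 75.8, 71.4 and 73.2 CPM (counts scaled to the TMM-adjusted library size) in the CP+siNC libraries and at 41.3, 40.5 and 42.5 CPM in the CP+siNAT10 libraries (log2 fold change -0.82 ± 0.04 SE, edgeR adjusted p = 2.8e-15), so the libraries followed their labels. Values after ± are SDs of 3 libraries for CPM. Epithelial keratin transcripts were abundant, with KRT8 at 1455 CPM in CP+siNC and 1450 CPM in CP+siNAT10 (means of 3). KRT18 (346 and 269 CPM), KRT19 (177 and 176 CPM), CDH2 (75.2 and 86.2 CPM) and EPCAM (15.5 and 19.3 CPM) were detected too, while CDH1 had at most 2 counts in any library. Of the proximal tubule markers, PAX8 (31.4 and 47.2 CPM in CP+siNC and CP+siNAT10), GGT1 (33.2 and 27.4 CPM) and SLC5A2 (9.30 and 11.5 CPM) were detected. The endocytic receptor LRP2 had at most 1 count in any library and the anion transporter SLC22A6 had 0 in all 6, and CUBN, SLC34A1, ANPEP, MME and PAX2 stayed under 1 CPM in every library, so much of the marker list was missing or scarce. The 3 endothelial markers stayed under 1 CPM in every library, and the leukocyte markers summed to between 1.25 and 2.43 CPM per library. Among the fibroblast markers COL1A1 (10.5 and 13.7 CPM) and LUM (11.2 and 11.5 CPM) were detected, while DCN had at most 1 count. In RNA from whole cultures, fewer cells that make a transcript and less of it per cell cannot be told apart.

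The LINC genes took up a small and steady share of each library. Those that met the limit summed to 0.142, 0.145 and 0.144% of all counts in the CP+siNC libraries and 0.142, 0.142 and 0.139% in the CP+siNAT10 libraries, and the most abundant 10 of them made up between 36.0% and 37.0% of that sum. The filter on low counts passed 239 of the 249, and the rest of the account is about these unless stated. The 10 that it removed were LINC00853, LINC00926, LINC00957, LINC01124, LINC01275, LINC02175, LINC02236, LINC02246, LINC02478 and LINC02583, with between 46 and 72 counts over the 6 libraries. The median of the 239 was 1.92 CPM (quartiles 0.846 and 5.34), against 10.4 CPM over all 19874 genes tested (quartiles 2.15 and 38.0). Means ran from 0.403 to 121 CPM, with 77 under 1 CPM and 34 at 10 CPM or more.

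Lengths, as deposited with the counts, had a median of 3667 bases among the LINC genes (quartiles 2160 and 5696.5) and 3928.5 bases among all genes tested (quartiles 1813 and 6805). The shortest was LINC00674 at 160 bases (chr17:68101908-68114527, GRCh38, plus strand) and the longest LINC00662 at 33198 bases (chr19:27681072-27793977, minus strand). Of the 239, 22 were under 1 kb and 26 were 10 kb or longer. Longer LINC genes tended to have more counts: across the 239 genes, log level and log length had r = 0.34, and across all 19874 genes r = 0.43, which describes genes of shared libraries and not replicates. Per kb of deposited length the medians were 2.33 CPM per kb under 1 kb, 0.602 at 1 to 3 kb, 0.465 at 3 to 10 kb and 0.561 CPM per kb over 10 kb. The signed log2 fold change had r = -0.048 with log length across the 239 genes. By length, 3 were higher and 2 lower of 22 under 1 kb, 9 and 17 of 81 at 1 to 3 kb, 13 and 22 of 110 at 3 to 10 kb, and 9 and 8 of 26 over 10 kb, with median log2 fold changes of 0.13, 0.053, -0.14 and -0.066. Across all genes tested, of any length, 21.8% were higher and 22.3% lower, and the length classes were not tested against each other.

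**Figure D1:**
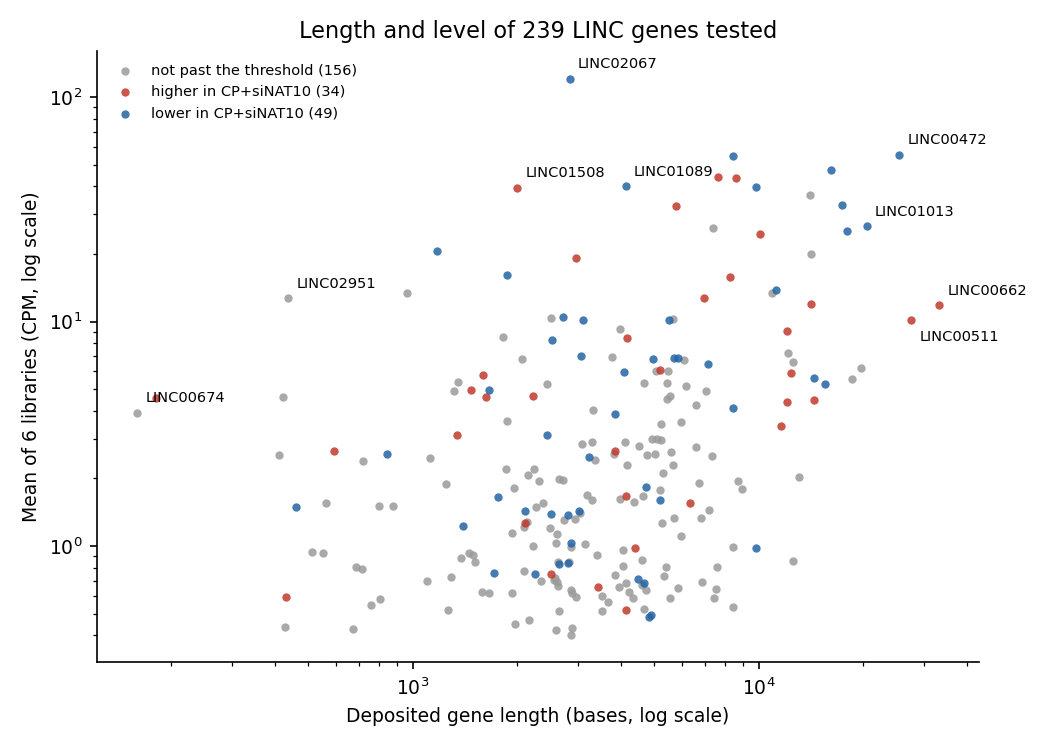
Deposited gene length in bases (x axis, log scale) against the mean CPM of the 6 libraries (y axis, log scale) for the 239 LINC genes tested, coloured by the direction of the difference where the edgeR adjusted p was under 0.05. LINC02067 stands highest at 121 CPM, and the points run from 160 bases (LINC00674) to 33198 bases (LINC00662).

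Ranked by CPM per kb of deposited length, LINC02067 led the LINC genes. It lies at chr3:161426427-161448242 on the plus strand, is 2845 bases long, and had a level of 42.5 CPM per kb. Its libraries read 134, 135 and 117 CPM in CP+siNC and 108, 116 and 114 CPM in CP+siNAT10. Each CP+siNAT10 library was below each CP+siNC library, though the lowest control value lay within 1 CPM of the highest knockdown value (log2 fold change -0.19 ± 0.04 SE, edgeR adjusted p = 7.7e-04). RPL23AP42, a processed copy of a ribosomal protein gene that lies inside it on the other strand, was at 169 ± 15.2 CPM in CP+siNC and 148 ± 7.40 CPM in CP+siNAT10 and differed by as much (log2 fold change -0.20 ± 0.05 SE, edgeR adjusted p = 9.4e-04), with -0.20 and an adjusted p of 0.0502 in DESeq2. Since the strand setting of the counting is not given in the sources used here, reads of this pair cannot be told apart where exons overlap. LINC02067 also overlaps 1 gene of the table on its own strand, whose reads cannot be told apart from its own where exons overlap. LINC02951 (29.1 CPM per kb), LINC00680 (25.2), LINC00674 (24.5), LINC01508 (19.7), LINC02274 (17.6), LINC00973 (13.9), LINC00888 (11.0), LINC01089 (9.69) and LINC02076 (8.65 CPM per kb) followed. Several of these places rest on a short deposited length. LINC00674 was counted over 160 bases and LINC00680 (ENSG00000215190) over 181 bases, while their longest GENCODE 29 transcripts hold 678 and 2622 bases. Divided by the longest GENCODE 29 transcript instead, 5 of the 10 stayed among the highest 10, and LINC01322 (44.1 CPM per kb of transcript) and LINC02067 (42.5) came first. Deposited lengths exceeded the distance from start to end in 6 of the 239, so lengths and positions were not all taken from 1 gene model. An order by level per length holds only as far as the lengths do.

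Among these 10, LINC02951, LINC00973, LINC00888 and LINC00674 did not pass the test of the difference. LINC02951 read 14.1, 11.8 and 13.4 CPM in CP+siNC and 14.4, 12.0 and 10.5 CPM in CP+siNAT10, with overlapping groups (log2 fold change -0.10 ± 0.09 SE, edgeR adjusted p = 0.44). LINC00973 read 12.2, 14.4 and 12.4 CPM and 13.4, 14.1 and 14.2 CPM (log2 fold change 0.09 ± 0.08 SE, edgeR adjusted p = 0.34). LINC00888 (ENSG00000240024, log2 fold change -0.21 ± 0.12 SE) and LINC00674 (0.22 ± 0.14 SE) had edgeR adjusted p of 0.17 and 0.21. Their groups overlapped too. LINC02274 fell from 23.6 ± 0.707 to 17.8 ± 0.941 CPM (SD, n = 3; log2 fold change -0.41 ± 0.06 SE, edgeR adjusted p = 2.4e-06). LINC02076 fell as well (log2 fold change -0.44 ± 0.11 SE, edgeR adjusted p = 0.0016), with libraries at 20.1, 22.3 and 13.5 CPM in CP+siNC and 12.2, 14.1 and 14.9 CPM in CP+siNAT10. Its CP+siNC replicate 3 lay among the CP+siNAT10 libraries, and DESeq2 did not call it (adjusted p = 0.13). LINC00680 had counts of 73, 94 and 76 in CP+siNC and 116, 112 and 116 in CP+siNAT10 under ENSG00000215190 (log2 fold change 0.31 ± 0.12 SE, edgeR adjusted p = 0.046), with no overlap between the groups. Under ENSG00000290555, which overlaps it and held more counts, LINC00680 rose from 17.2 ± 0.281 to 21.2 ± 0.833 CPM (SD, n = 3; log2 fold change 0.30 ± 0.06 SE, edgeR adjusted p = 1.8e-04), a call kept without any 1 library and in DESeq2. The call under ENSG00000215190 was lost without CP+siNC replicate 1 (adjusted p = 0.13) or replicate 3 (0.12), without CP+siNAT10 replicate 1 (0.16) or replicate 2 (0.097), without a filter on low counts (0.069), and in DESeq2 (0.18).

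Of the 239 LINC genes, 34 (14.2%) were higher and 49 (20.5%) were lower in CP+siNAT10 at an edgeR adjusted p under 0.05, and 156 did not pass. Over all genes tested, 21.8% were higher and 22.3% lower, or 44.1% in either direction. The share that passed grew with level, for LINC genes as for other genes. Under 1 CPM, 14 of 77 LINC genes passed (18.2%, against 12.6% of 2722 other genes), and between 1 and 5 CPM 29 of 98 (29.6%, against 26.5% of 4673). Between 5 and 20 CPM it was 25 of 46 (54.3%, against 47.1% of 4796), and over 20 CPM 15 of 18 (83.3%, against 65.1% of 7444), of which 10 were lower and 5 higher. These shares were not tested against each other. The median log2 fold change of the LINC genes was -0.069 (quartiles -0.31 and 0.26) and that of all genes 0.0070. Per library, the median LINC gene stood at 0.022, -0.056 and -0.092 (log2, against the CP+siNC mean) in CP+siNAT10 replicates 1 to 3 and at 0.0042, -0.011 and 0.019 in CP+siNC, so the CP+siNAT10 libraries lay on both sides of 0. DESeq2 called 15 LINC genes higher and 32 lower, all 47 of them among the 83 called by edgeR. Of all genes, in either direction, edgeR called 8771 and DESeq2 6692. Without CP+siNC replicate 2 or CP+siNAT10 replicate 3 the number of LINC genes higher was 22 or 21, and 8011 or 7913 of all genes were called.

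**Figure D2:**
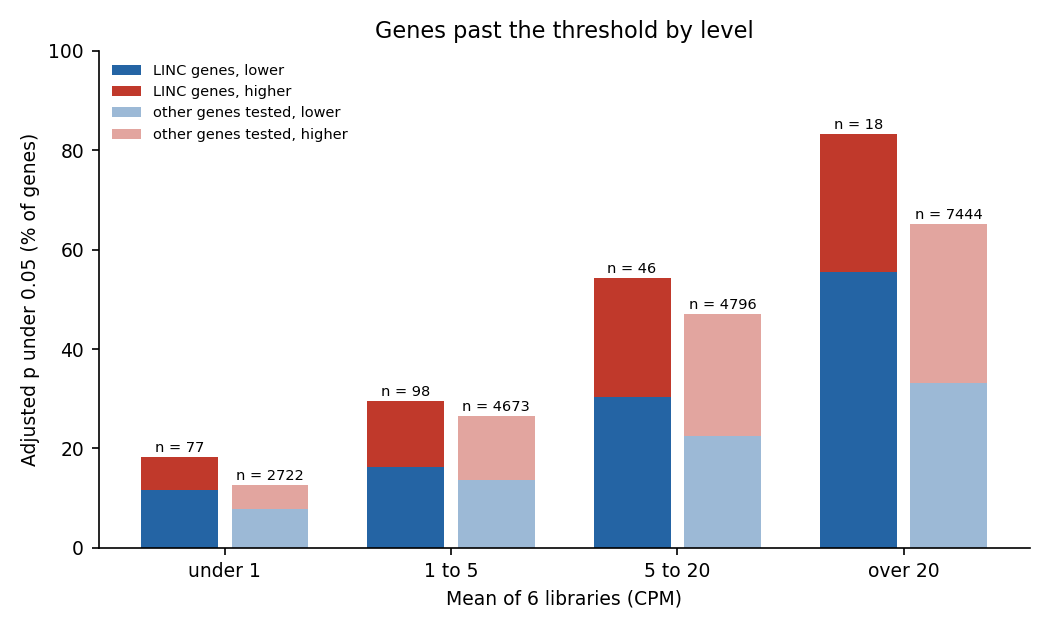
Percent of genes with an edgeR adjusted p under 0.05 (y axis) by mean CPM (x axis) for LINC genes (full colour) and other genes tested (pale), stacked as lower (blue) and higher (red) in CP+siNAT10, with the number of genes above each bar. The LINC bars rise from 18.2% of 77 genes under 1 CPM to 83.3% of 18 genes over 20 CPM.

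Past 2-fold, 3 LINC genes were higher (LINC01224, LINC01508 and LINC03044) and 9 lower (LINC02457, LINC01226, LINC03033, LINC01503, LINC00574, LINC01547, LINC02156, LINC00242 and LINC02535), against 0.951% of all genes higher and 1.38% lower. Most of these were scarce. LINC01224, LINC03044 and LINC02457 met the count limit only through the group in which they were high, as did LINC02928 and the untested LINC01124 and LINC02175, so the choice itself favoured a difference in these 6. Without these genes, 32 LINC genes of 235 were higher and 48 lower, 1 and 8 of them past 2-fold. LINC01224 had counts of 6, 9 and 5 in CP+siNC and 13, 15 and 21 in CP+siNAT10, and LINC03044 had 9, 8 and 6 and 19, 17 and 18. LINC02457 had counts of 18, 15 and 13 in CP+siNC and 3, 4 and 8 in CP+siNAT10 (log2 fold change -1.79 ± 0.40 SE). Without CP+siNC replicate 1, 7 LINC genes were higher past 2-fold. With at least 10 counts asked in all 6 libraries, 1 was higher and 4 were lower past 2-fold among 199. The edgeR function glmTreat, which tests against a 2-fold change, called 0 in either direction (0 higher and 4 lower at an unadjusted p under 0.05).

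Just inside the count limit stood LINC02246 (counts of 10, 6 and 4 in CP+siNC and 5, 10 and 11 in CP+siNAT10), LINC00853 (5, 11 and 12, then 6, 5 and 10) and LINC02175 (8, 5 and 6, then 11, 10 and 10). Just outside it, with 2 libraries at the limit, stood LINC02695 (8, 8 and 8, then 7, 12 and 15), LINC00629 (9, 10 and 8, then 8, 9 and 14) and LINC01003 (3, 9 and 6, then 22, 11 and 6). Totals on the 2 sides of the limit overlapped, with 46 counts for LINC02246 inside and 58 for LINC02695 outside.

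LINC01508 rose and had the smallest p of all 239 LINC genes. It lies at chr9:90300885-90433566 (GRCh38, minus strand, ENSG00000231107), is 2007 bases long, and overlaps no other gene of the table. Counts were 482, 573 and 493 in CP+siNC and 1098, 1185 and 1332 in CP+siNAT10, or 25.6, 26.8 and 25.6 CPM and 52.1, 54.2 and 52.5 CPM. The groups were far apart beside the spread within each (26.0 ± 0.674 and 52.97 ± 1.09 CPM, SD, n = 3; log2 fold change 1.03 ± 0.05 SE, edgeR adjusted p = 3.1e-16). Its nearest tested gene, DIRAS2 (a small GTPase gene), lies 176266 bases away and did not pass, though its estimate was also above 0 (log2 fold change 0.79 ± 0.36 SE, edgeR adjusted p = 0.081). Without CP+siNC replicate 3 DIRAS2 passed (adjusted p = 0.029). Its RefSeq promoter (GRCh38.p14, chr9:90433440-90433739, minus strand, 250 bases before to 50 after the start) is shown because no other gene overlaps or starts near this one, with capitals at a match to GGAATG, the core of the TEAD motif, on the opposite strand.
LINC01508: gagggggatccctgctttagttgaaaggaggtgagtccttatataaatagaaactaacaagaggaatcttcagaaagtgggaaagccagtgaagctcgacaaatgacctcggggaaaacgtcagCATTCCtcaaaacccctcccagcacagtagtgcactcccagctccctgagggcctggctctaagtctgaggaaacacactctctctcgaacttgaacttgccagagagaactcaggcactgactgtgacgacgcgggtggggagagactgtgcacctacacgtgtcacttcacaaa

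LINC00205, at chr21:45288035-45297354 on the plus strand, also rose by a small amount that the replicates resolved. It read 35.7, 37.2 and 35.1 CPM in CP+siNC and 51.9, 52.6 and 52.4 CPM in CP+siNAT10 (log2 fold change 0.54 ± 0.04 SE, edgeR adjusted p = 7.5e-11), with no overlap. LINC00511, whose RNA is known to bind the polycomb methyltransferase EZH2, is one of the longest LINC genes (27664 bases, chr17:72290091-72640472, minus strand). It read 7.28, 6.73 and 7.37 CPM in CP+siNC and 12.2, 15.2 and 11.9 CPM in CP+siNAT10 (log2 fold change 0.88 ± 0.10 SE, edgeR adjusted p = 1.9e-08). The nearest coding gene, the zinc transporter gene SLC39A11, lies 5477 bases away and was higher too (log2 fold change 0.87 ± 0.25 SE, edgeR adjusted p = 0.0051), a call lost without CP+siNAT10 replicate 3 (0.064). LINC01234 (chr12:113583886-113773681, minus strand) had 3.56, 3.04 and 2.34 CPM in CP+siNC and 6.55, 5.81 and 5.01 CPM in CP+siNAT10 (log2 fold change 0.95 ± 0.14 SE, edgeR adjusted p = 3.3e-06). RBM19, a ribosome biogenesis factor gene 43057 bases from it, was higher as well (log2 fold change 0.62 ± 0.05 SE, edgeR adjusted p = 5.9e-12).

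LINC02432 (13.5, 10.4 and 12.7 CPM in CP+siNC, 20.6, 18.0 and 19.8 CPM in CP+siNAT10; log2 fold change 0.68 ± 0.08 SE, edgeR adjusted p = 5.3e-08) rose, while its nearest tested gene ZNF330, 68814 bases away, was slightly lower (log2 fold change -0.10 ± 0.04 SE, edgeR adjusted p = 0.027). The call of ZNF330 was lost without CP+siNC replicate 1 (0.19), without CP+siNAT10 replicate 2 (0.11) or 3 (0.10), with library size scaling (0.16), without a filter on low counts (0.065), and in DESeq2 (0.054). LINC02593 lies beside SAMD11 at the start of chromosome 1 and had counts of 16, 24 and 29 in CP+siNC and 47, 48 and 54 in CP+siNAT10 (log2 fold change 0.91 ± 0.21 SE, edgeR adjusted p = 7.7e-04). LINC01347 (ENSG00000291217) overlaps 3 other genes of the table on its own strand and had counts of 28, 44 and 40 and 87, 64 and 83 (log2 fold change 0.86 ± 0.18 SE, edgeR adjusted p = 1.8e-04), so its reads may be shared with them. LINC02604 (counts of 11, 11 and 6, then 18, 18 and 22) and LINC02015 (17, 15 and 13, then 26, 24 and 32) were the weakest of the 10 largest rises, with log2 fold changes of 0.84 ± 0.32 and 0.66 ± 0.26 SE and edgeR adjusted p of 0.034 and 0.039. Both calls were lost without CP+siNC replicate 2 (0.060 and 0.12) or 3 (0.17 and 0.12), and without CP+siNAT10 replicate 1 (0.068 and 0.084), 2 (0.067 and 0.052) or 3 (0.084 and 0.11). DESeq2 made neither call (0.15 and 0.18), and that of LINC02015 was also lost without a filter on low counts (0.063). The calls of LINC01224 and LINC03044 were likewise lost without CP+siNC replicate 3 (0.071 and 0.066), the first also without CP+siNC replicate 1 (0.052) or CP+siNAT10 replicate 3 (0.083) and the second without CP+siNAT10 replicate 1 (0.057) and in DESeq2 (0.094). LINC00662, the longest LINC gene, rose from 11.0 ± 0.375 to 12.7 ± 0.852 CPM (SD, n = 3; log2 fold change 0.20 ± 0.08 SE, edgeR adjusted p = 0.039), a call lost without CP+siNC replicate 1 (0.13) or 2 (0.085) or CP+siNAT10 replicate 1 (0.17) or 3 (0.054), without a filter on low counts (0.054) and in DESeq2 (0.16).

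**Figure D3:**
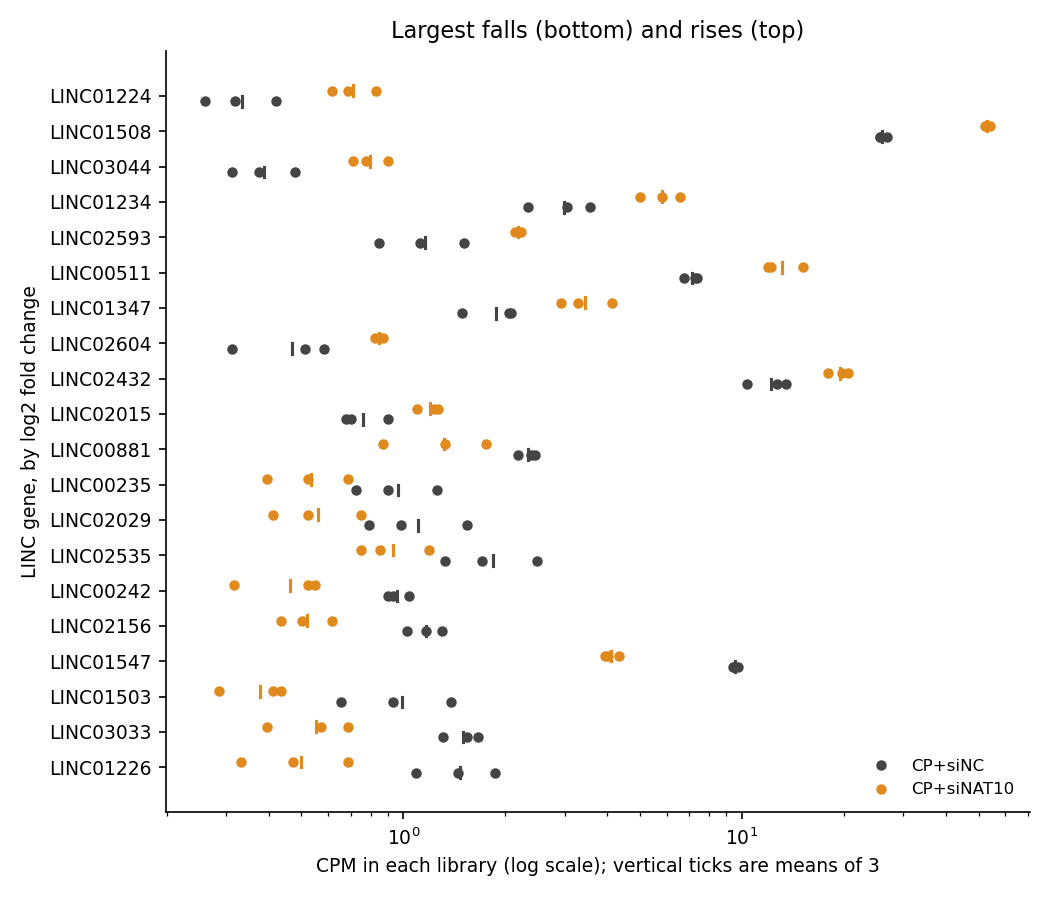
CPM in each library (x axis, log scale) of the 10 largest rises and the 10 largest falls among LINC genes with an edgeR adjusted p under 0.05 and a mean of 0.5 CPM or more whose groups did not overlap (y axis, ordered by log2 fold change), for CP+siNC (dark) and CP+siNAT10 (orange), with vertical ticks at the means of 3. LINC01508 and LINC01547 show groups far apart beside the spread within each.

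Among the falls, LINC01547 combined a large difference with tight replicates. It lies at chr21:44932814-44939845 on the minus strand (4950 bases, ENSG00000183250) and read 9.72, 9.39 and 9.50 CPM in CP+siNC and 4.32, 3.94 and 4.02 CPM in CP+siNAT10. The groups were apart by far more than their SDs of 0.168 and 0.203 CPM (log2 fold change -1.22 ± 0.10 SE, edgeR adjusted p = 7.0e-11). SLX9, a ribosome biogenesis factor gene that starts 180 bases away on the other strand, was at 34.8 ± 1.73 CPM in CP+siNC and 33.4 ± 0.329 CPM in CP+siNAT10 and did not pass (log2 fold change -0.06 ± 0.05 SE, edgeR adjusted p = 0.34). The fall was thus seen on 1 side of their shared start region. An unnamed gene inside LINC01547 on the opposite strand, ENSG00000272825, fell with it (log2 fold change -1.45 ± 0.27 SE), and their reads cannot be told apart where exons overlap. LINC01089 (chr12:121795267-121803906, minus strand, 4132 bases) was among the most abundant, with 46.3, 49.0 and 54.6 CPM in CP+siNC and 31.1, 28.1 and 31.2 CPM in CP+siNAT10 (log2 fold change -0.73 ± 0.06 SE, edgeR adjusted p = 1.5e-11). It overlaps 1 other gene of the table on its own strand and 2 on the opposite strand. Their reads cannot be told apart from those of LINC01089 where exons overlap.

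LINC01013 is deposited as a locus of 20523 bases of exon over chr6:131901848-132169175 on the plus strand, a span that contains CCN2, the gene of connective tissue growth factor, on the minus strand. LINC01013 read 29.9, 34.7 and 34.1 CPM in CP+siNC and 21.6, 20.5 and 18.3 CPM in CP+siNAT10 (log2 fold change -0.71 ± 0.06 SE, edgeR adjusted p = 2.9e-10). CCN2 was at 92.4 ± 2.63 CPM in CP+siNC and 58.7 ± 1.94 CPM in CP+siNAT10 (log2 fold change -0.65 ± 0.04 SE, edgeR adjusted p = 1.1e-13), a difference of the same direction and nearly the same size. Without a stated strand setting, reads of CCN2 and of LINC01013 cannot be told apart where their exons overlap. LINC01322 (54.9, 52.8 and 54.0 CPM in CP+siNC, 40.8, 39.1 and 42.5 CPM in CP+siNAT10; log2 fold change -0.40 ± 0.05 SE, edgeR adjusted p = 2.4e-08) overlaps BCHE, the butyrylcholinesterase gene, which was at 8.28 ± 0.342 CPM in CP+siNC and 4.90 ± 0.172 CPM in CP+siNAT10 (log2 fold change -0.75 ± 0.10 SE, edgeR adjusted p = 5.1e-07). Here the LINC gene had far more counts than its coding partner, and both were lower. LINC00472 (60.0 ± 1.33 and 50.7 ± 3.01 CPM, SD, n = 3; log2 fold change -0.24 ± 0.05 SE, edgeR adjusted p = 6.0e-05) overlaps OGFRL1, which was lower by more (log2 fold change -0.63 ± 0.04 SE, edgeR adjusted p = 1.9e-13).

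The other large falls were of scarcer genes. LINC01226 had counts of 35, 31 and 21 in CP+siNC and 7, 15 and 12 in CP+siNAT10 (log2 fold change -1.54 ± 0.30 SE, edgeR adjusted p = 9.1e-05). It overlaps TINAGL1, which codes for a secreted matrix protein and was at 37.1 ± 3.05 CPM in CP+siNC and 17.4 ± 0.945 CPM in CP+siNAT10 (log2 fold change -1.09 ± 0.06 SE, edgeR adjusted p = 2.1e-14). TINAGL1 lies on the same strand and held far more counts, so where exons overlap, the fall of LINC01226 cannot be told apart from reads of TINAGL1. LINC01503 had counts of 26, 14 and 18 and 6, 9 and 11 (log2 fold change -1.35 ± 0.35 SE, edgeR adjusted p = 0.0022), and its nearest tested coding gene, IER5L, lies 154039 bases away. LINC02156 (22, 22 and 25, then 13, 11 and 11) fell with PCED1B, 141646 bases away (log2 fold changes -1.17 ± 0.29 and -0.65 ± 0.04 SE). LINC02535 (25, 53 and 33, then 18, 26 and 19; log2 fold change -1.01 ± 0.25 SE) lies 59398 bases from NT5E, an ecto-nucleotidase gene, which was lower by less (log2 fold change -0.34 ± 0.06 SE). LINC02574, which overlaps the interferon-induced gene IFI6 on the same strand, had counts of 32, 45 and 44 and 19, 31 and 38 (log2 fold change -0.66 ± 0.21 SE, edgeR adjusted p = 0.014), and IFI6 was lower by a like amount (log2 fold change -0.53 ± 0.08 SE, edgeR adjusted p = 3.0e-06). The call of LINC02574 was lost without CP+siNC replicate 3 (0.058), without CP+siNAT10 replicate 1 (0.090) and in DESeq2 (0.068). LINC01764 overlaps UCA1, a long noncoding RNA first described in bladder cancer, and both were lower (log2 fold changes -0.81 ± 0.15 and -0.89 ± 0.09 SE), with edgeR adjusted p of 5.4e-05 and 2.0e-09.

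**Figure D4:**
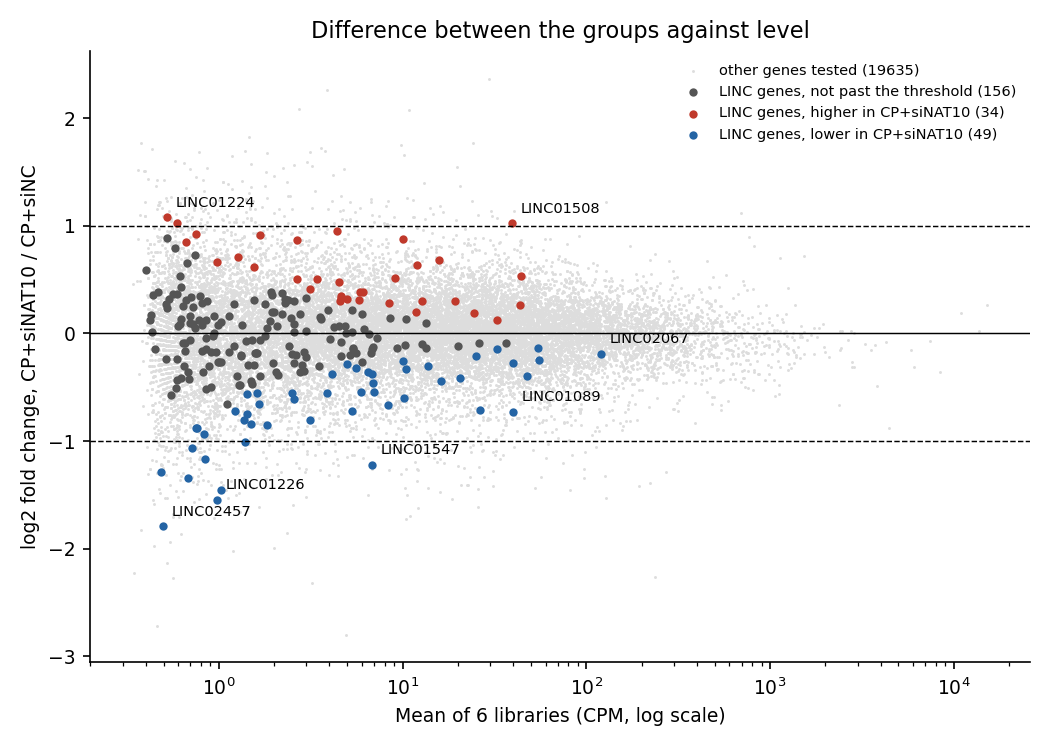
Log2 fold change of CP+siNAT10 over CP+siNC (y axis) against the mean CPM of the 6 libraries (x axis, log scale), with the 239 LINC genes as large points over the other genes tested in pale grey and dashed lines at a 2-fold change. Of the 12 LINC genes past 2-fold, LINC01508 and LINC01547 lie furthest to the right.

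Although their names call them intergenic, 160 of the 239 overlap another gene of the table, 70 on the same strand and 90 on the opposite strand only, and 79 overlap none. Overlap here means that the spans from start to end meet, introns included, with any gene of the table, counted or not. Exons were not compared, and the share of all genes tested that overlap another was not counted. Over all genes tested 21.8% were higher and 22.3% lower. Of the 79 without overlap, 17 were higher and 15 lower, with a median log2 fold change of 0.041. Of the 90 with an overlap on the opposite strand only, 9 were higher and 17 lower (median -0.090), and of the 70 with an overlap on the same strand, 8 were higher and 17 lower (median -0.14). These are counts without a test of the difference between the classes, which also differ in level (medians of 1.32, 1.97 and 2.87 CPM) and in length (2745, 3916 and 4052 bases). Across the 239 genes, the log2 fold change of a LINC gene and that of its nearest tested gene had Pearson r = 0.43 and Spearman r = 0.42, and where the nearest gene did not overlap, these were 0.29 and 0.28 (n = 113). With the nearest coding gene the Pearson r was 0.25 (Spearman r = 0.22, n = 239), and 0.18 where it did not overlap (Spearman r = 0.15, n = 200). The genes share their libraries. Where exons overlap, reads of overlapping genes, LINC00472, LINC01278, LINC01322, LINC01764 and LINC02574 among them, cannot be told apart from those of their partners, so these values are descriptions. Of the 83 LINC genes that passed, 50 had a nearest coding gene that passed too, in the same direction in 35 and in the opposite direction in 15, where 44.1% of all genes tested passed. Among genes other than LINC genes, the share that passed grew with level, from 12.6% under 1 CPM to 65.1% over 20 CPM. The coding neighbours were not matched by level. An opposite case was LINC01278 on the X chromosome (9.36 ± 1.41 and 14.5 ± 0.833 CPM, SD, n = 3; log2 fold change 0.64 ± 0.09 SE, edgeR adjusted p = 9.6e-07), which overlaps SPIN4, a gene of the spindlin family of histone readers that was lower (log2 fold change -0.56 ± 0.06 SE, edgeR adjusted p = 4.2e-09).

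Other nearest genes of the LINC genes named above went with them in part. PTGR2, a prostaglandin reductase gene 21696 bases from LINC02274, was higher (log2 fold change 0.30 ± 0.08 SE, edgeR adjusted p = 0.0021), while LINC02274 was lower. TMEM248, 14928 bases from LINC02604, and ENSG00000261770, which overlaps LINC00662, were higher as these were (log2 fold change 0.14 ± 0.04 SE, edgeR adjusted p = 0.0078; log2 fold change 0.91 ± 0.23 SE, edgeR adjusted p = 0.002). ENSG00000230699, 1917 bases from LINC02593, was higher (log2 fold change 0.72 ± 0.22 SE, edgeR adjusted p = 0.0081), a call lost without CP+siNC replicate 1 (0.054) and in DESeq2 (0.059). SAMD11, head to head with LINC02593, was higher (log2 fold change 0.20 ± 0.08 SE, edgeR adjusted p = 0.033), a call lost without CP+siNC replicate 1 (0.097) or 2 (0.21), without CP+siNAT10 replicate 1 (0.052), 2 (0.057) or 3 (0.085), and in DESeq2 (0.14). ZNF91, a zinc finger gene 3651 bases from LINC01224, was higher (log2 fold change 0.19 ± 0.07 SE, edgeR adjusted p = 0.027), a call lost without CP+siNC replicate 1 (0.11), without CP+siNAT10 replicate 1 (0.076) or 2 (0.053), and in DESeq2 (0.14). ENSG00000263680, which overlaps LINC00511, was higher (log2 fold change 0.62 ± 0.25 SE, edgeR adjusted p = 0.047), a call lost without CP+siNC replicate 1 (0.079) or 2 (0.27), without CP+siNAT10 replicate 2 (0.11) or 3 (0.17), without a filter on low counts (0.051), and in DESeq2 (0.18). Beside LINC00674 and LINC00888, which did not pass, the overlapping ENSG00000291214 (log2 fold change 0.26 ± 0.09 SE, edgeR adjusted p = 0.017) and SNORA63E (log2 fold change 0.98 ± 0.35 SE, edgeR adjusted p = 0.024) were higher. The first call was lost without CP+siNC replicate 2 (0.077) or CP+siNAT10 replicate 3 (0.087) and in DESeq2 (0.10), and the second without CP+siNC replicate 1 (0.085) or 2 (0.062), without CP+siNAT10 replicate 1 (0.071) or 2 (0.085), and in DESeq2 (0.12). The nearest genes of 9 more did not pass, given here with log2 fold change and edgeR adjusted p: RAB30-DT (-0.07, 0.53) at LINC02951, ENSG00000283352 (0.26, 0.093) at LINC00680, ENSG00000239462 (0.13, 0.65) at LINC00973, ENSG00000290655 (-0.62, 0.19) at LINC02076, ZNNT1 (-0.05, 0.77) at LINC03044, CEP170 (0.07, 0.093) at LINC01347, TBL1XR1 (-0.02, 0.75) at LINC02015, IER5L-AS1 (0.02, 0.92) at LINC01503 and TPT1P6 (-0.23, 0.64) at LINC02535. CEP170 passed with library size scaling (0.0071).

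Of the 239, 72 had a head-to-head gene, defined as a tested gene on the opposite strand whose start lies within 5 kb, and in 52 the starts lay within 1 kb. The log2 fold changes of the 72 and of their head-to-head genes had Pearson r = 0.37 and Spearman r = 0.41, again across genes that are not replicates. LINC genes that are each other's partner enter as 2 of the 72, LINC01128 with LINC00115 and LINC03033 with LINC01303 among them. Some partners also overlap, and their reads cannot be told apart where exons overlap. In 11 LINC genes both the gene and its partner passed the test, 5 with both lower, 4 with both higher and 2 in opposite directions, and LINC03033 and LINC01303 count once each among the lower, where 34.7% of LINC genes and 44.1% of all genes passed. LINC00205 starts 144 bases from POFUT2, whose product adds fucose to thrombospondin repeats, and both were higher, POFUT2 at 40.4 ± 0.252 CPM in CP+siNC and 49.6 ± 0.936 CPM in CP+siNAT10 (log2 fold change 0.30 ± 0.04 SE, edgeR adjusted p = 2.3e-06). LINC03033 and LINC01303 start 204 bases apart on chromosome 14, overlap there on opposite strands, and both were lower. Both also overlap ENSG00000258989, on the strand of LINC03033, which was lower too (log2 fold change -0.53 ± 0.17 SE, edgeR adjusted p = 0.0095). Where exons of these genes overlap, their reads cannot be told apart. LINC03033 had counts of 29, 28 and 32 in CP+siNC and 12, 15 and 10 in CP+siNAT10 (log2 fold change -1.45 ± 0.27 SE, edgeR adjusted p = 6.5e-05), and LINC01303 had 36, 45 and 33 and 26, 32 and 31 (log2 fold change -0.55 ± 0.20 SE, edgeR adjusted p = 0.028). The call of LINC01303 was lost without CP+siNC replicate 1 (0.058) or 2 (0.11), without CP+siNAT10 replicate 1 (0.073) or 3 (0.091), and in DESeq2 (0.14). LINC00938 (43.5 ± 1.84 and 36.0 ± 2.98 CPM, SD, n = 3; log2 fold change -0.27 ± 0.05 SE, edgeR adjusted p = 1.2e-04) starts 1846 bases from ARID2, a subunit gene of the PBAF chromatin remodelling complex, and ARID2 was lower too (log2 fold change -0.39 ± 0.06 SE, edgeR adjusted p = 2.5e-06). The opposite was seen at LINC00235, which had counts of 17, 27 and 14 and 11, 15 and 10 (log2 fold change -0.88 ± 0.32 SE, edgeR adjusted p = 0.026), while CAPN15, a calpain family gene that starts 305 bases away, was higher (log2 fold change 0.29 ± 0.07 SE, edgeR adjusted p = 0.001). The call of LINC00235 was lost without CP+siNC replicate 2 (adjusted p = 0.19), without CP+siNAT10 replicate 1 (0.057) or 3 (0.13), and in DESeq2 (0.12).

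**Figure D5:**
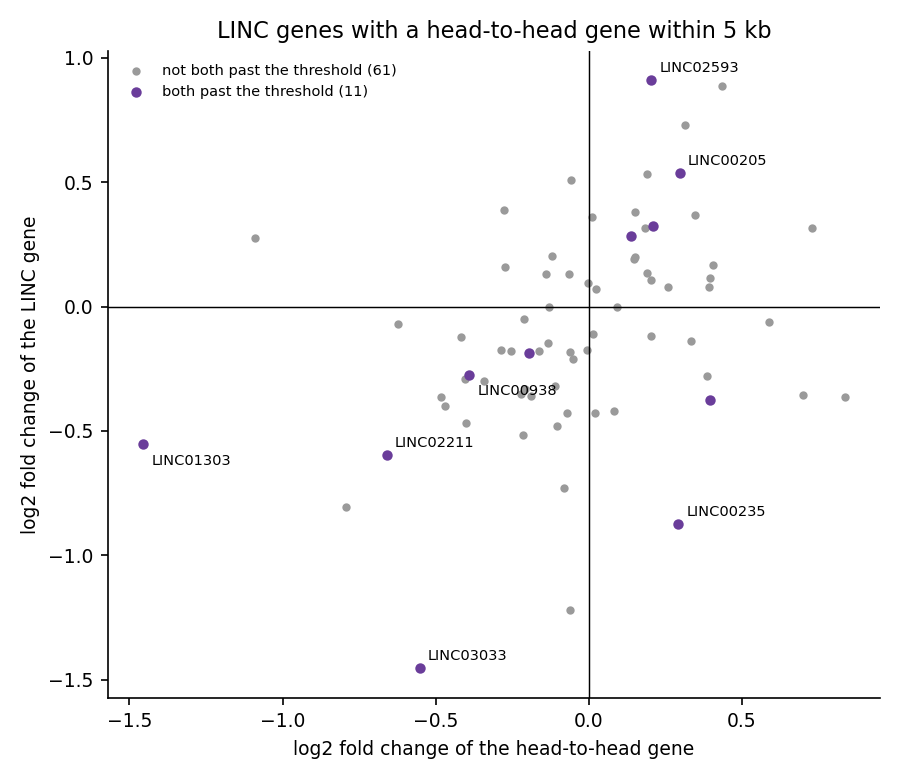
Log2 fold change of 72 LINC genes (y axis) against that of the gene that starts within 5 kb on the opposite strand (x axis), CP+siNAT10 over CP+siNC, with purple points where both passed an edgeR adjusted p of 0.05 (11 LINC genes). LINC03033 and LINC01303, like other LINC genes that are each other's partner, appear as 2 points, and LINC00235 lies on the opposite side from its partner.

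Some LINC genes lie beside each other, and not all such pairs moved together. LINC03014 rose (log2 fold change 0.39 ± 0.12 SE, edgeR adjusted p = 0.0075) while LINC03015, which starts 113 bases away, did not pass (log2 fold change -0.28 ± 0.17 SE, edgeR adjusted p = 0.2). LINC00662 rose while LINC02987, which starts 546 bases from its start and overlaps it on the opposite strand, did not pass (log2 fold change -0.12 ± 0.06 SE, edgeR adjusted p = 0.12). Where exons of LINC00662 and LINC02987 overlap, their reads cannot be told apart. LINC00242 (chr6:169788790-169798825, minus strand) and LINC00574 (chr6:169790037-169801812, plus strand) overlap on opposite strands. Their counts were 17, 20 and 20 in CP+siNC and 11, 12 and 8 in CP+siNAT10 for the first and 10, 17 and 14 and 5, 10 and 4 for the second. Both were lower (log2 fold change -1.07 ± 0.31 SE, edgeR adjusted p = 0.0066 for LINC00242; log2 fold change -1.29 ± 0.40 SE, edgeR adjusted p = 0.0096 for LINC00574). Reads cannot be told apart where exons of both genes overlap, and ERMARD, the nearest coding gene, did not pass (log2 fold change -0.01 ± 0.07 SE). The call of LINC00242 was lost without CP+siNAT10 replicate 3 (adjusted p = 0.060) and in DESeq2 (0.051), and that of LINC00574 without CP+siNC replicate 2 (0.051) or CP+siNAT10 replicate 3 (0.082). LINC02029 and LINC00881 lie 1107 bases apart on the plus strand of chromosome 3, with counts of 29, 17 and 19 in CP+siNC and 11, 9 and 19 in CP+siNAT10 for LINC02029 and 41, 51 and 47 and 37, 29 and 22 for LINC00881. Both were lower (log2 fold changes -0.93 ± 0.31 and -0.85 ± 0.21 SE, edgeR adjusted p of 0.017 and 0.0017). The call of LINC02029 was lost without CP+siNC replicate 1 (adjusted p = 0.17), without CP+siNAT10 replicate 2 (0.092) and in DESeq2 (0.069).

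RefSeq promoters of 300 bases (GRCh38.p14) were matched by symbol for 159 of the 239 LINC genes, in 183 windows, since some genes have several starts. Their median GC content was 56.0%, against 58.7% over all 35116 promoters. The motifs, chosen after the values were seen, were searched on both strands. TGANTCA, the AP-1 motif, was in 12.0% of the LINC windows and 7.71% of all promoters, GGAATG (TEAD core) in 14.2% and 14.0%, and CCAAT in 41.0% and 34.6%. Among windows of LINC genes that were higher, 2 of 23 held TGANTCA, 1 of 23 GGAATG and 10 of 23 CCAAT, and among those that were lower, 3 of 40, 5 of 40 and 15 of 40. A match is a description of letters and not of a bound factor. The promoters of genes that moved with a neighbour, or far from any, are shown with matches in capitals: LINC00242 (chr6:169798776-169799075, minus strand, with a match to each of the 3 motifs), LINC02029 (chr3:157081591-157081890, plus strand, TGANTCA), LINC01234 (chr12:113773634-113773933, minus strand, CCAAT at 3 places), LINC03033 (chr14:61570290-61570589, plus strand) and LINC00205 (chr21:45287802-45288101, plus strand; the last 2 without a match), with no overlap between matches.
LINC00242: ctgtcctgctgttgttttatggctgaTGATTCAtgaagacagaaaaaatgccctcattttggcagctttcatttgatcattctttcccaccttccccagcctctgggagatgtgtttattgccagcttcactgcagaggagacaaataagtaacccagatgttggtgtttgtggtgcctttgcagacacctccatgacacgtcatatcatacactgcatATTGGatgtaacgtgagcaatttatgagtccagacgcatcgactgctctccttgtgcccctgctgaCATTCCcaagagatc
LINC02029: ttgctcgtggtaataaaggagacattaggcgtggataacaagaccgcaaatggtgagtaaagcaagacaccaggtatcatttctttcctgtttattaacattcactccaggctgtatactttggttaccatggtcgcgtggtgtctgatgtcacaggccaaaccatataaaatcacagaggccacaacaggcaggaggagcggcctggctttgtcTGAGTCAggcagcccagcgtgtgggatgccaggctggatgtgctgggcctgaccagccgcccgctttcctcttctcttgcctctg
LINC01234: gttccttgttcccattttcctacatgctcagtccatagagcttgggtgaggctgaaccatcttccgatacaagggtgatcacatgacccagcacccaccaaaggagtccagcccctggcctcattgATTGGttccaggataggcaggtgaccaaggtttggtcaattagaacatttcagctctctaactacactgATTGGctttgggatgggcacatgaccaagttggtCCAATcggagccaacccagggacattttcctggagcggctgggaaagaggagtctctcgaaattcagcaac
LINC03033: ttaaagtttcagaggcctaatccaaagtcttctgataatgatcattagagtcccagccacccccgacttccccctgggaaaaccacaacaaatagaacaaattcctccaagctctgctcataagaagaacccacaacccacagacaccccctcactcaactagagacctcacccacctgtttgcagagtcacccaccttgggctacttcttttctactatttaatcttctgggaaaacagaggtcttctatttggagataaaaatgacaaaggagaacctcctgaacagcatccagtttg
LINC00205: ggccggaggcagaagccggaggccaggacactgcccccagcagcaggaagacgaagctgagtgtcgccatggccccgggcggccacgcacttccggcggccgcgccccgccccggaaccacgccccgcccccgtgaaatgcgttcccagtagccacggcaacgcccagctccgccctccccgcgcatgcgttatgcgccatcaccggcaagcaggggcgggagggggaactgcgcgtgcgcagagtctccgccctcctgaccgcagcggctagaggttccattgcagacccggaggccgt

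Of the 183 promoter windows, 128 lie within 1 kb of the deposited start. The start used by RefSeq differs from the deposited one by 36 bases at LINC00574 and by 135 bases at LINC03033, and at LINC01013 both RefSeq starts lie 230724 and 232177 bases inside the deposited locus. Of the 239 LINC genes, 231 were found in GENCODE 29 by identifier, 230 of them overlapping the deposited position on the same strand, 193 as lincRNA, 15 as processed transcripts, 10 as antisense RNA and 2 as protein-coding genes. Their longest transcripts had a median of 2052 bases and 47.6% GC, 33 with 1 exon, 66 with 2 exons and 132 with 3 or more. Neither GC content (r = 0.018) nor length of these transcripts (r = 0.077) followed the log2 fold change across the 231 genes.

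The heptamer GACTATC, as well as the heptamer ACTATCA and the heptamer CATATTC, all chosen with earlier results of these data known, were searched on the sense strand of the same transcripts. Of 231 transcripts, 9, 13 and 21 held them, or 38 with at least 1. Of these 38, 5 were higher and 8 lower, and their median was -0.11 on the log2 scale. Among the 193 others 26 were higher and 40 lower (median -0.069), and across all genes tested 21.8% were higher and 22.3% lower. These counts, and those by heptamer below, were not tested against each other. Transcripts with a heptamer were longer (median 2874 against 1831 bases), as longer sequences hold more of any word. Of the 9 with GACTATC, 2 were lower and the rest did not pass, of the 13 with ACTATCA 3 were higher and 2 lower, and of the 21 with CATATTC 2 were higher and 6 lower (medians -0.17, 0.017 and -0.090). Stretches are shown with the heptamer in capitals, from LINC02432 and LINC00630, which were higher, and from LINC00641 and LINC02210, which were lower.
LINC02432: gtttgtcttaaACTATCAtattataggaa
LINC00630: atttcatctgtACTATCAgcttcttcaaa
LINC00641: tagaatatgtgCATATTCacctttagata
LINC02210: taggacagaacCATATTCctttggagcca
They begin the heptamer at positions 129, 465, 4594 and 8560 of their GENCODE 29 transcripts, and the log2 fold changes were 0.68, 0.52, -0.38 and -0.72.

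Other classes of noncoding RNA were counted in the same way, without a test of the classes, and over all genes tested 21.8% were higher and 22.3% lower. Of 779 antisense RNAs tested, 92 were higher (11.8%) and 149 lower (19.1%), with a median log2 fold change of -0.028. Of 276 divergent transcripts 23 (8.33%) were higher and 41 (14.9%) lower (median -0.058), and of 38 microRNA host genes 4 (10.5%) and 10 (26.3%) (median -0.081). ITGB2-AS1 (log2 fold change -1.48 ± 0.08 SE, edgeR adjusted p = 3.6e-15) and LAMTOR5-AS1 (log2 fold change -1.05 ± 0.07 SE, edgeR adjusted p = 3.6e-13) had the smallest p among the antisense RNAs, IL10RB-DT (log2 fold change -0.68 ± 0.07 SE, edgeR adjusted p = 2.9e-09) among the divergent transcripts and MIR34AHG (log2 fold change -0.65 ± 0.11 SE, edgeR adjusted p = 2.4e-05) among the host genes. The next smallest p of the divergent transcripts was that of GARS1-DT, which rose (log2 fold change 0.42 ± 0.04 SE, edgeR adjusted p = 2.9e-09). Among the host genes it was that of MIR302CHG, which rose too (log2 fold change 0.21 ± 0.04 SE, edgeR adjusted p = 2.8e-05). TUBA1B-AS1, TMED2-DT and MIR302CHG were the most abundant of each, at 843, 90.0 and 102 CPM. Of 18 tested intergenic RNAs with a name of their own, 3 were higher and 7 lower. JPX and FTX, both from the X-inactivation centre, rose (log2 fold change 0.70 ± 0.04 SE, edgeR adjusted p = 1.7e-13; log2 fold change 0.52 ± 0.04 SE, edgeR adjusted p = 4.7e-11), and NORAD, which binds Pumilio proteins, fell from 1301 ± 72.3 to 934 ± 16.7 CPM (SD, n = 3; log2 fold change -0.48 ± 0.04 SE, edgeR adjusted p = 1.4e-11). MALAT1, the most abundant, did not pass (log2 fold change -0.06 ± 0.04 SE, edgeR adjusted p = 0.19) except without CP+siNC replicate 3 (0.023), nor did NEAT1 (log2 fold change 0.00 ± 0.04 SE, edgeR adjusted p = 0.95). Of 7 tested p53-linked RNAs, NORAD, MIR34AHG and PURPL were lower and PVT1 was higher, with PURPL at 0.853 ± 0.127 and 0.191 ± 0.0504 CPM (SD, n = 3; log2 fold change -2.13 ± 0.39 SE, edgeR adjusted p = 4.4e-05). The call of PVT1 was lost without CP+siNC replicate 1 (0.21) or 2 (0.081), without CP+siNAT10 replicate 2 (0.12) or 3 (0.11), and in DESeq2 (0.13).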

How the data were processed

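RNA of Cisplatin-treated HK-2 cells was sequenced and first analysed by a company, per the study's Methods, in stranded mRNA libraries. The kit adds molecular identifiers meant to correct for duplicate reads, per the same Methods. Whether the deposited counts were merged by identifier is not given in the sources used here. The submitters' processing notes list Trimmomatic 0.36, STAR 2.5.3a, featureCounts of Subread 1.5.1, edgeR 3.12.1 and build GRCh38. The deposited values are raw counts per gene, with positions and gene lengths. The annotation release and the strand setting of the counting are not given in the sources used here. Groups and replicate numbers came from the labels. Libraries held 19321665 to 25192736 counts, and the median standard error of a LINC gene was 0.32 under 1 CPM and 0.049 over 20 CPM.

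The software was R 4.3.3, with limma 3.58.1 beneath edgeR 4.0.16. The filterByExpr function removed scarce genes (minimum count 10, minimum total 15). Libraries were scaled by TMM and compared over all 19874 genes kept with the quasi-likelihood test (glmQLFit, glmQLFTest) and Benjamini-Hochberg adjustment. Each standard error is the size of the log2 fold change over the root of F. Level per length is CPM divided by the deposited length in kb. For single genes an exact permutation test of 3 against 3 libraries cannot give a p below 0.1. Libraries of 1 group differed by more than sampling noise (chi-square per gene 1.74 to 2.55, where 1 is noise alone), so none was a copy of another. Coding genes were taken from GENCODE 29, and from RefSeq by symbol where GENCODE 29 did not hold the identifier. Python 3.11.15 with pandas 2.3.3 and matplotlib 3.10.9 was used for positions, transcripts and figures. The programs were tested on simulated data.

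Genes were named by rule: NAT10, the 10 LINC genes with the highest level per length, the 10 largest rises and the 10 largest falls with adjusted p under 0.05, groups that did not overlap and a mean of at least 0.5 CPM, the 5 smallest p, the shortest and the longest, those nearest the count limit, the head-to-head or nearest neighbours of these (those of LINC01089 left out), and in each other list the smallest p and the most abundant. Genes not tested or past the limit in 1 group only, nearest coding genes, UCA1, NEAT1, PVT1, LINC00472, LINC00630, LINC00641, LINC00938, LINC01278, LINC01322, LINC01764, LINC02210, LINC02457, LINC02574, LINC03014, LINC03015 and LINC00574 were named after their values were seen. The members and lists were chosen with earlier results of these data known. Alternatives were RLE, upper quartile and library size scaling, no filter, a minimum count of 30, DESeq2 1.42.0, edgeR's exact test, glmTreat, blocking on replicate number, fits without 1 library at a time, and narrower choices of LINC genes.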

Additional observations from a re-analysis of the deposited data

How the results depend on the processing

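Of the 83 LINC genes called, 83 were also called with RLE or upper quartile scaling and with edgeR's exact test, 78 with library size scaling, 76 without a filter, 66 with a minimum count of 30 (147 LINC genes tested) and 47 in DESeq2. The number higher (34) was 15 in DESeq2 and between 21 and 26 when a library was left out. The number lower (49) was 32 in DESeq2 and between 40 and 49 when a library was left out. Over all genes, in either direction, the number called (8771) was 6692 in DESeq2 and between 7822 and 8168 when a library was left out. It was 8482 without a filter and 8434 with a minimum count of 30. Past 2-fold, the number higher (3) was 1 with a minimum count of 30, in DESeq2 and with 10 counts in all 6 libraries, 0 with glmTreat, and between 3 and 7 when a library was left out. The number lower (9) was 1 with a minimum count of 30, 5 in DESeq2, 4 with 10 counts in all 6 libraries, 0 with glmTreat, and between 8 and 11 when a library was left out. At an unadjusted p under 0.05, glmTreat called 0 higher and 4 lower. Among the 79 LINC genes without overlap, 17 were higher and 15 lower, 3 and 4 past 2-fold, and their median of 0.041 stood against -0.069 over the 239. The cause of these differences was not tested.

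The median over the LINC genes was between -0.10 and -0.032 under every other setting, and that of all genes between 0.0021 and 0.044. Among the named genes followed under these settings, none that passed the test changed direction. Those not followed included GARS1-DT and MIR302CHG. LINC02951, NEAT1, ERMARD, IER5L-AS1, RAB30-DT, TBL1XR1, TPT1P6 and ZNNT1, which did not pass, changed sign under some settings. Of the values of named genes under the alternatives, 1248 kept their side of the threshold, 94 lost it and 3 gained it. ENSG00000290655, LINC00574, LINC01224, LINC02457 and PURPL had no adjusted p in DESeq2, and the scarcest named genes were not tested at a minimum count of 30.

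The replicate numbers did not pair the samples, and not every sample correlated best with its own number: deviations of libraries with the same number had correlations of 0.0081, 0.064 and -0.21. With the replicate block, 8526 genes in place of 8771 were called, and of the LINC genes 30 higher and 48 lower, 3 and 8 past 2-fold. Among named genes the block lost the calls of LINC00662 (adjusted p = 0.051), LINC00680 (0.053), LINC02015 (0.055) and ENSG00000263680 (0.066). Counts limit precision, since the median standard error was 0.32 under 1 CPM and 0.049 over 20 CPM.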
